A study of Sus scrofa with 41 samples.

Results

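The slow-fibre contractile genes described here were TNNT1, TNNI1, TNNC1, MYL2, MYL3 and ATP2A2, taken by their pig Ensembl symbols from the deposited gene counts. All 6 were found, among 25880 genes in the files, and all 6 passed the filter on low counts that left 11146 genes for testing. The data were RNA-seq counts from the psoas major, a loin muscle under the spine, of 41 purebred uncastrated male pigs sampled just after slaughter. There were 13 Danbred Duroc (Duroc) pigs aged 131 to 156 days and 28 Danbred Landrace (Landrace) pigs aged 147 to 166 days, and the labels name no treatment. The feed conversion ratio (FCR), feed eaten per unit of weight gained, lay between 1.83 and 2.18 in Duroc and between 1.92 and 2.25 in Landrace. The RNA integrity number (RIN), a score of how intact the extracted RNA was, lay between 7 and 8.8 in Duroc and between 6.5 and 8.3 in Landrace. Each pig was 1 library, and the pigs fell into 5 slaughter batches, of which the first held 1 Duroc pig only.

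Skeletal muscle is a mixture of slow fibres, which contract slowly and resist fatigue, and fast fibres, and each kind uses its own versions of the contractile proteins. In the thin filament, troponin is the calcium switch. Its tropomyosin-binding subunit is encoded in slow fibres by TNNT1, its inhibitory subunit by TNNI1 and its calcium-binding subunit by TNNC1. In the thick filament, MYL2 encodes the regulatory and MYL3 the essential light chain of slow myosin, and ATP2A2 encodes the pump that returns calcium to the sarcoplasmic reticulum (SERCA2). TNNC1, MYL2, MYL3 and ATP2A2 are also used in the heart. A sample of whole muscle with less slow-fibre RNA may hold fewer or thinner slow fibres or less of these transcripts per fibre, and bulk RNA cannot tell these apart.

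In the Sscrofa11.1 RefSeq annotation, TNNT1 (ENSSSCG00000025353) lies on chromosome 6 from 59351445 to 59365584 and TNNI1 (ENSSSCG00000024061) on chromosome 10 from 23788279 to 23800554. TNNC1 (ENSSSCG00000011441) and MYL3 (ENSSSCG00000011325) are both on chromosome 13, from 34591571 to 34594320 and from 29730271 to 29735616. MYL2 (ENSSSCG00000039710) and ATP2A2 (ENSSSCG00000034386) are both on chromosome 14, from 32205953 to 32213848 and from 31674659 to 31744981. The genes thus sit at 6 separate places on 4 chromosomes, and none overlaps another.

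The total count on genes was similar in all pigs, with 22188911 to 25954816 counts. The muscle genes ACTA1, CKM, DES, MYOT and TCAP together reached 104934 to 190538 CPM (counts scaled to 1e6 per library) in each pig, so the defining markers of skeletal muscle were present. Of the heart markers, NPPB had no count in any pig, and NKX2-5 had at most 3 counts and MYL4 at most 16 counts, while TNNT2 had 17 to 145 counts and ACTC1 327 to 2137 counts. The gene carrying the symbol MYH6 had 16289 to 217604 counts. MYH7, the slow and heart myosin heavy chain next to it in mammals, had no matched identifier in the name tables, and whether the counts under MYH6 include reads of MYH7 could not be settled from the files.

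Levels of the members differed among pigs by more than 10-fold. CPM after TMM scaling, which adjusts each library for its composition, was used throughout, and since gene lengths were not used the levels are compared between pigs and not between genes. TNNT1 ranged from 312 through a median of 1398 to 4097 CPM over the 41 pigs. TNNI1 ranged from 168 through 845 to 2427 CPM and TNNC1 from 207 through 957 to 2737 CPM. All 3 troponin genes had their lowest value in pig Landrace 10 and their highest in Landrace 8, which were 13.1-fold apart for TNNT1, 14.4-fold for TNNI1 and 13.2-fold for TNNC1. MYL2 ranged from 500 through 1930 to 6007 CPM, between the same pair of pigs. MYL3 ranged from 166 CPM in Landrace 10 through 780 to 1960 CPM in Duroc 13. ATP2A2 was lowest in Landrace 20 at 150.1 CPM, had a median of 495 CPM and was highest in Landrace 8 at 1746 CPM. The lowest count behind any of these values was 3230, at which the counting error is 1.76%, so the spread between pigs was far larger than the counting error. The coefficient of variation over pigs was 43.1% for MYL3, 47.5% for MYL2, 48.6% for TNNT1, 51.5% for ATP2A2, 52.5% for TNNC1 and 53.0% for TNNI1.

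On the log2 CPM scale the standard deviation of the members was 0.64 to 0.74, where the median over the 11146 genes was 0.35. MYL3, the least variable member, still varied more than 86.9% of genes, and TNNI1, the most variable, more than 92.3% of genes. After RIN, age, FCR, breed and batch were fitted, the residual SD was 0.58 (MYL2) to 0.66 (ATP2A2) against a median of 0.27 over all genes, and larger than that of 90.1% to 93.7% of genes. The covariates together took up 22.3% of the variation in MYL3 and 44.2% in TNNI1, with the other 4 members in between. These shares are not adjusted for the 9 columns of the model, and unrelated terms would also take up a part. The residual SD, which is adjusted for them, was 0.627 against an SD of 0.636 in MYL3. In TNNI1 it was 0.618 against 0.740. The members thus stayed among the more variable genes with the covariates removed.

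The levels within each breed are given as ranges, which grow with the number of pigs and rest on 13 Duroc and 28 Landrace pigs. TNNT1 was 943, 1438 and 3241 CPM (lowest, median, highest) in Duroc and 312, 1265 and 4097 CPM in Landrace. TNNI1 was 578, 879 and 1975 CPM in Duroc and 168, 776 and 2427 CPM in Landrace. TNNC1 was 619, 1050.5 and 2511 CPM in Duroc and 207, 798 and 2737 CPM in Landrace. In each of these genes the Duroc range lay wholly inside the Landrace range. MYL2 was 1290 to 4272 CPM with a median of 2331 in Duroc and 500 to 6007 CPM with a median of 1801 in Landrace. MYL3 was 536, 821 and 1960 CPM in Duroc and 166, 726 and 1565 CPM in Landrace. ATP2A2 was 254, 605 and 1229 CPM in Duroc and 150.1, 486 and 1746 CPM in Landrace. The median was higher in Duroc for all 6 genes, and the breeds overlapped for all 6.

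**Figure D1:**
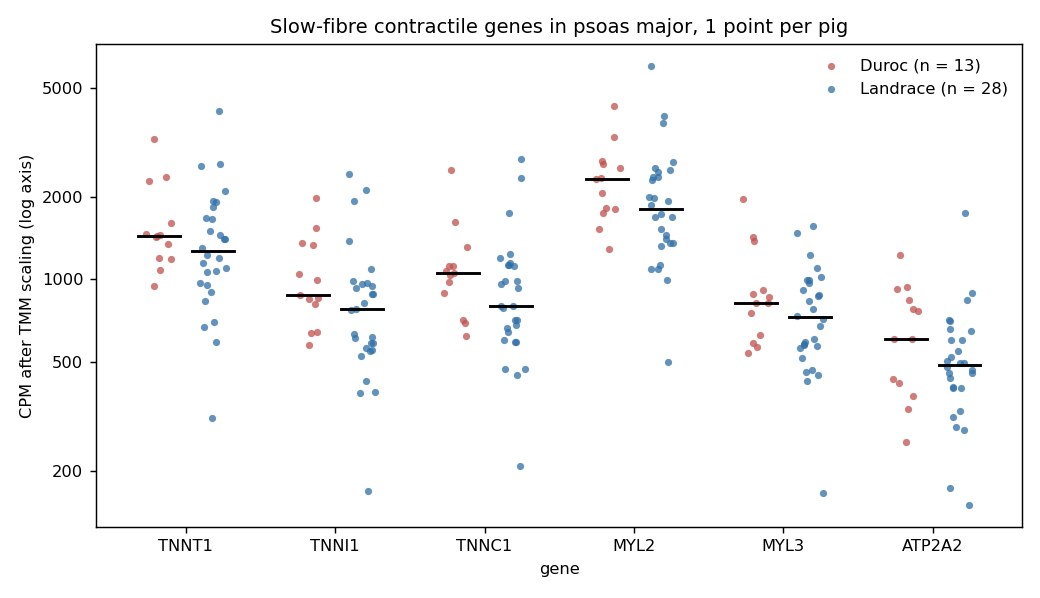
CPM after TMM scaling (log axis) of the 6 slow-fibre genes in 13 Duroc and 28 Landrace pigs, 1 point per pig, with the median of each breed as a bar. The breeds overlap in every gene, the Duroc medians are the higher ones, and the single lowest and highest pigs are mostly Landrace, as for TNNT1 at 312 and 4097 CPM.

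The 6 genes together took 0.164% to 2.12% of the counts on genes in a pig, with a median of 0.627%. The share was 0.494% to 1.37% in Duroc and spanned the whole range in Landrace. Pig Landrace 8 (batch 3, RIN 7.8, FCR 2.22) had the highest share and was 1.53 above the average pig in mean log2 CPM over the 6 genes, with each gene among its 3 highest values. Duroc 13 (batch 2, RIN 7.9, FCR 1.91) followed at 1.23 above. At the other end Landrace 10 (batch 2, RIN 8.3, FCR 1.98) was 2.04 below the average on this scale (mean -2.04), and Landrace 20 (batch 5, RIN 7.7, FCR 2.15) had a mean of -1.14. Both had all 6 genes in the lowest or next to lowest place. In 12 of the 41 pigs all 6 genes were above their mean log2 CPM, in 14 pigs all 6 were below, and in 15 pigs the genes were on both sides.

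**Figure D2:**
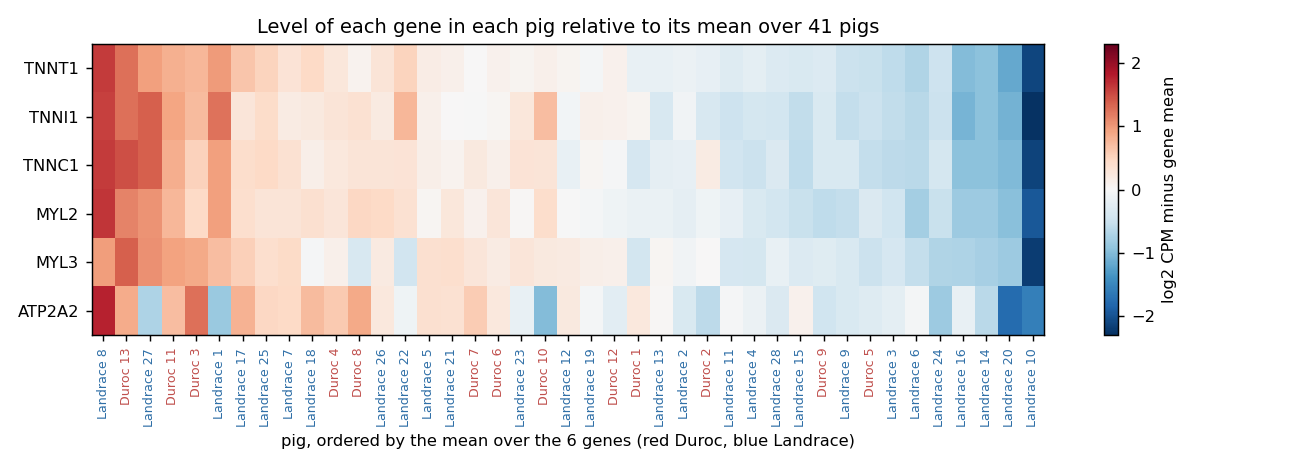
Log2 CPM minus the gene's mean over the 41 pigs, as colour, for the 6 genes (rows) and the pigs (columns, ordered by the mean over the genes). Many columns hold 1 colour from TNNT1 to MYL3, while ATP2A2 is blue in a few pigs in which the others are red, among them Landrace 27 and Landrace 1 with RIN 6.6 and 6.5.

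The members varied together from pig to pig. Over 41 pigs the Pearson correlation of log2 CPM had a median of 0.921 over the 15 pairs and was between 0.555 and 0.974, and Spearman's rho had a median of 0.867. All 15 pairs passed the permutation test (two-sided, adjusted for 39 correlations, adjusted p of 0.000572 or less). The values of a pair come from the same libraries and share their scaling. The troponin genes and MYL2 formed the closest group, with TNNT1 and MYL2 at r = 0.974 (rho = 0.953, permutation p = 1e-05, the smallest the permutations can give). The weakest pair by r was TNNI1 and ATP2A2, at r = 0.555 (rho = 0.506, permutation p = 0.00022), and without the 2 pigs farthest from the median of TNNI1 it was at r = 0.365. The lowest rho of the 15 pairs was 0.504, in another pair. For the 15 pairs the median without the 2 farthest pigs was 0.893.

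ATP2A2 stood apart from the other members in the unadjusted values. Its correlation with the other 5 was 0.555 to 0.671, while the 10 pairs among those 5 were at 0.888 or more. Without the 2 pigs with RIN below 7 the lowest of the 15 pairs was 0.744. On the residuals after RIN, age, FCR, breed and batch, ATP2A2 was correlated with the others at 0.787 (MYL3) to 0.880 (MYL2), and the median over all pairs was 0.908. Within Duroc the median over pairs was 0.878 and within Landrace 0.919. Within the batches of at least 6 pigs the medians were 0.977 (batch 2), 0.903 (batch 3) and 0.861 (batch 5). The lowest pair was at 0.488 within Duroc, 0.544 within Landrace, and 0.648, 0.6496 and 0.344 within batches 2, 3 and 5, so all pairs were positive in these subsets but not equally strong.

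**Figure D3:**
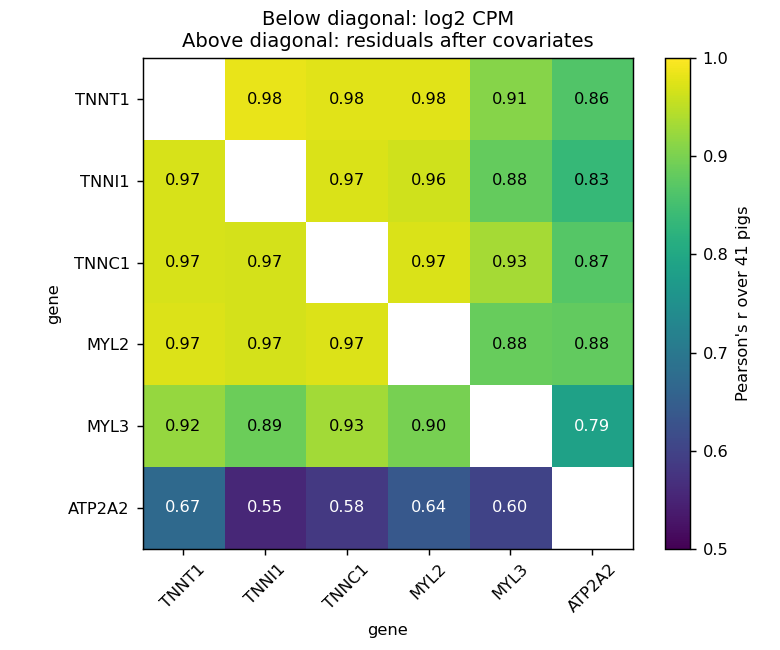
Pearson's r over 41 pigs for each pair of slow-fibre genes, as colour and number. Below the diagonal it is from log2 CPM and above it from residuals after RIN, age, FCR, breed and batch. The ATP2A2 row below the diagonal holds the 5 lowest values, 0.55 to 0.67, and its column above the diagonal holds 0.79 to 0.88.

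Among all other genes the ones most like the members were found by the mean of their correlations with the 6, over 41 pigs. Over 11140 genes the median of this mean was near 0 (-0.000349), and 5 genes were above 0.8. The top 2 on log2 CPM, ENSSSCG00000006556 (0.912) and ENSSSCG00000000576 (0.879), had no symbol in the name tables. Next were PLIN5, a lipid droplet protein of oxidative tissues (0.820), MYH7B, a slow-type myosin heavy chain gene (0.810), ENSSSCG00000032838 (0.804), the LIM protein gene PDLIM1 (0.796), MYH6 (0.796), TRNP1 (0.780), HADH, an enzyme of mitochondrial fatty acid oxidation (0.774), and MRPS6, a subunit of the mitochondrial ribosome (0.769). On the residuals 12 genes were above 0.8, again led by ENSSSCG00000006556 (0.949) and ENSSSCG00000000576 (0.900). MYH6 (0.883), ENSSSCG00000034163 (0.876), TRNP1 (0.856), MYH7B (0.851), PLIN5 (0.834), ENSSSCG00000032838 (0.829), the nuclear export gene XPO4 (0.827) and TECRL (0.817) completed the first 10. The single closest gene was ENSSSCG00000006556 for TNNT1 (r = 0.982), TNNI1 (0.965), TNNC1 (0.975) and MYL2 (0.984), and ENSSSCG00000000576 for MYL3 (0.916). For ATP2A2 it was MYH6, at 0.949 on log2 CPM and 0.983 on residuals. The closest gene of each member was the same on both scales. These correlations are descriptions of 41 shared libraries.

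Of the terms of the model, RNA integrity had the most members past the threshold. In the joint model of FCR, RIN, age, breed and batch (edgeR quasi-likelihood test, Benjamini-Hochberg FDR over all genes, threshold 0.1), 5 of the 6 members were lower at higher RIN. Of all genes 51.8% were called for RIN, 27.9% lower and 23.9% higher at higher RIN, so a change with RIN was common in the whole transcriptome. TNNI1 fell by 1.00 in log2 for each unit of RIN (SE 0.218, FDR = 0.000312). TNNC1 fell by 0.87 (SE 0.232, FDR = 0.0026), MYL2 fell by 0.73 (SE 0.213, FDR = 0.00549), TNNT1 fell by 0.72 (SE 0.236, FDR = 0.0130) and MYL3 fell by 0.60 (SE 0.227, FDR = 0.0290). ATP2A2 had a change of 0.21 (SE 0.274, FDR = 0.566). The median over the 6 members was -0.72, and over all genes -0.01.

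The unadjusted values had the same signs. TNNI1 was correlated with RIN at r = -0.474 (rho = -0.322, permutation p = 0.00211, adjusted p = 0.00484), TNNC1 at r = -0.416 (rho = -0.327, permutation p = 0.00732, adjusted p = 0.0159) and MYL2 at r = -0.403 (rho = -0.304, permutation p = 0.00966, adjusted p = 0.0188). TNNT1 was at r = -0.344 (rho = -0.292, permutation p = 0.0286, adjusted p = 0.0485) and MYL3 at r = -0.313 (rho = -0.266, permutation p = 0.0475, adjusted p = 0.0772). ATP2A2 was at r = 0.269 (rho = 0.194, permutation p = 0.0902, adjusted p = 0.133). For rho the permutation p was 0.038 (TNNC1) to 0.224 (ATP2A2) and the adjusted p 0.0741 to 0.337, so the rank correlations were the weaker ones. Over the 6 members the median r was -0.474 within batch 2, -0.136 within batch 3 and -0.454 within batch 5. The total count of a library moved with the members too, with r from -0.507 (TNNI1) to 0.268 (ATP2A2), and its part in the RIN relation was not tested.

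The 2 pigs with RIN below 7 were among the 6 highest in every member but ATP2A2. Landrace 1 (RIN 6.5) had place 3 of 41 for TNNT1 at 2643 CPM and place 4 for TNNI1 at 1933 CPM, and Landrace 27 (RIN 6.6) had place 2 for TNNI1 at 2112 CPM and for MYL3 at 1565 CPM. In ATP2A2 the same pigs were in places 38 and 36 of 41, at 281 and 313 CPM, and Duroc 10 (RIN 7) in place 39 at 254 CPM. In the other members Duroc 10 was in places 8 (TNNI1) to 15 (TNNT1). ATP2A1, which encodes the pump of fast fibres, was likewise low in these 3 pigs, at 3699, 1925 and 2427 CPM in places 38, 41 and 40. Without the 2 pigs with RIN below 7 the number of members called was 2, TNNI1 (-0.87, SE 0.324, FDR = 0.0427) and TNNC1 (-0.76, SE 0.339, FDR = 0.090). The changes of TNNT1 (-0.61, SE 0.351, FDR = 0.196), MYL2 (-0.62, SE 0.319, FDR = 0.147) and MYL3 (-0.48, SE 0.331, FDR = 0.290) kept their direction and were somewhat smaller than with all pigs, with larger standard errors, and they did not pass. ATP2A2 had -0.08 (SE 0.365), and unadjusted r was -0.305 to 0.139. Without Landrace 27 alone MYL3 was not called (FDR = 0.105). Within Landrace all members but ATP2A2 were called (5 of 6, where 42.9% of genes were called, 23.1% lower and 19.8% higher), from -0.96 for TNNI1 to -0.58 for MYL3. Within Duroc no member and none of 10509 genes was called with edgeR, though 1824 genes (17.4%) had an unadjusted p under 0.05, and the changes were -0.21 for TNNI1 (SE 0.371) to 0.84 for ATP2A2 (SE 0.643). The difference of the RIN slope between breeds was not tested, and the Duroc fit rested on 13 pigs against 28 in Landrace. A missing call in Duroc is thus no sign that the relation is absent there.

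The scaling of the libraries moved with RIN. The 3 pigs with the lowest RIN, Landrace 27, Duroc 10 and Landrace 1, had the 3 lowest TMM factors, 0.650, 0.6996 and 0.764, where the median was 1.03 and the highest 1.24. With library size alone as scaling, the median change of all genes for RIN was 0.30 and 87.6% of the called genes were higher with RIN, against 46.2% with TMM. Under this scaling TNNI1 (-0.69, FDR = 0.0097) and TNNC1 (-0.56, FDR = 0.0477) were called, and ATP2A2 had 0.51 (FDR = 0.137). A change of scaling shifts all genes of a library alike, so the members' changes relative to the median of all genes, as with TNNI1 at -0.99, stay nearly the same by construction.

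**Figure D4:**
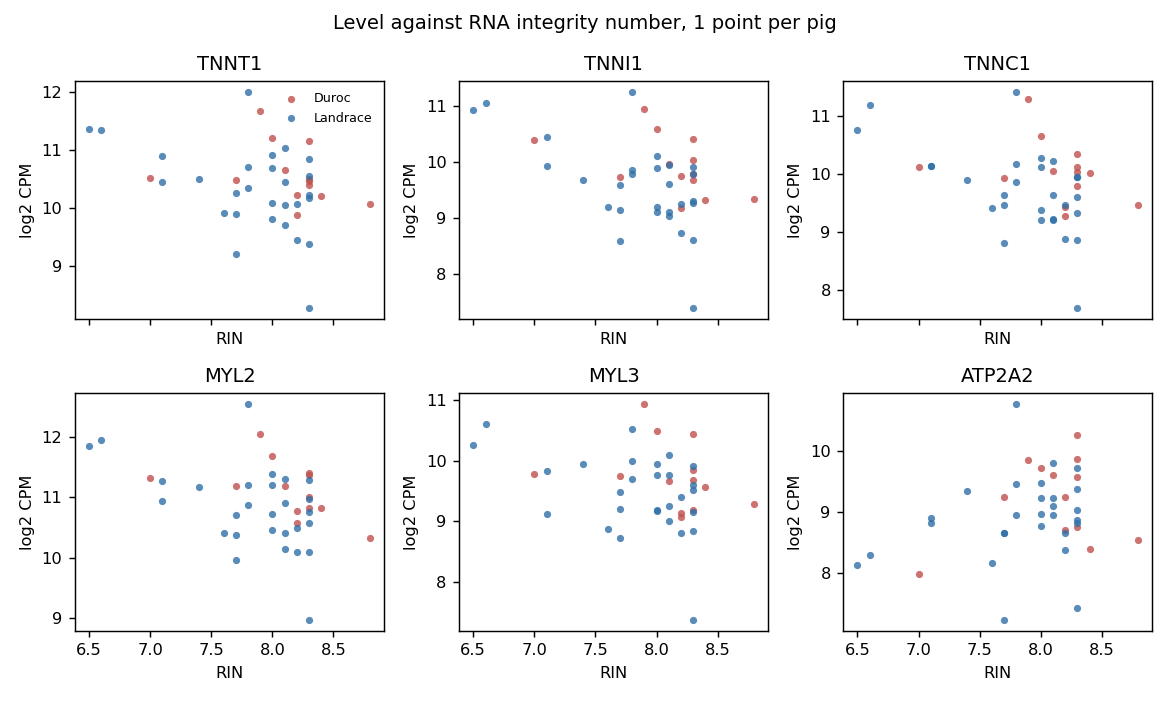
Log2 CPM after TMM scaling against RIN for each slow-fibre gene, 1 point per pig (Duroc red, Landrace blue). In the first 5 panels the 2 Landrace pigs with RIN 6.5 and 6.6 lie among the highest points, and in the ATP2A2 panel they lie low, at 281 and 313 CPM.

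Between the breeds 2 of the 6 members, TNNI1 and ATP2A2, were lower in Landrace in the joint model, and 4 did not pass the threshold. Of all genes 33.1% were called for breed, 17.5% lower and 15.6% higher in Landrace, so the share of members called was close to the share of all genes. TNNI1 was lower in Landrace by 0.79 in log2 (change -0.79, SE 0.302, FDR = 0.0514), which is a fold of 0.580. ATP2A2 was lower as well (change -0.73, SE 0.321, FDR = 0.0903). The other 4 did not pass, with TNNT1 at -0.64 (SE 0.320, FDR = 0.139), MYL2 at -0.60 (SE 0.291, FDR = 0.130), TNNC1 at -0.60 (SE 0.316, FDR = 0.166) and MYL3 at -0.53 (SE 0.299, FDR = 0.196). At an unadjusted p under 0.05 there were 3 members, and 37.2% of all genes. The median over the members was -0.62 and over all genes -0.002.

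These breed calls depended on the model and on single pigs. ATP2A2 was not called with DESeq2 (FDR = 0.112), with batch as a number (0.102), with no filter on low counts (0.124), without age (0.130) or without batch (0.222) in the model. TNNI1 had -0.35 without RIN in the model (FDR = 0.527) and was not called without batch (0.105). In the 10 settings tried, the breed change was -0.82 to -0.34 for TNNT1, -0.96 to -0.35 for TNNI1 and -0.77 to -0.22 for TNNC1. It was -0.77 to -0.30 for MYL2, -0.70 to -0.28 for MYL3 and -0.91 to -0.56 for ATP2A2. When each pig was left out in turn, 2 members were called in 21 of the 41 fits, and from 0 to 6 in the others. No member was called without Duroc 3 or without Landrace 8, where TNNI1 had an FDR of 0.197 and of 0.112. All 6 were called without Duroc 13, with FDR from 0.0243 to 0.0933, and 4 without Landrace 25 or without Landrace 26. One member, TNNI1, was called without any of 14 other pigs, which were Duroc 6, 7 and 11 and Landrace 4, 5, 7, 9, 10, 13, 14, 17, 19, 20 and 28. With library size alone as scaling, the median of all genes for breed was -0.18, only 12.9% of called genes were higher in Landrace (47.0% with TMM), and all 6 members were called.

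The joint model compares the breeds at equal RIN, age and FCR, in which they were not balanced. Mean RIN was 8.12 in Duroc and 7.84 in Landrace, mean age 147.1 and 154.9 days and mean FCR 1.97 and 2.10. Without adjustment the breed difference was smaller and stayed within the spread between pigs. The mean log2 CPM in Landrace minus Duroc was -0.37 for TNNI1, with a mean of 9.56 ± 0.80 (SD, n = 28) against 9.93 ± 0.53 (SD, n = 13), and -0.26 to -0.33 for the others (permutation test, two-sided, p of 0.139 to 0.256 before adjustment for 18 tests and 0.307 to 0.385 after). Within batch 2, with 3 Duroc and 12 Landrace pigs, the difference was -0.82 (MYL2) to -1.12 (TNNI1), with exact permutation p of 0.0308 to 0.116 and adjusted p of 0.307 for all 6. The 3 Duroc pigs of this batch were Duroc 13, Duroc 3 and Duroc 1, with 3241, 2285 and 1192 CPM of TNNT1, against 312, 1122 and 2643 CPM (lowest, median, highest) in the Landrace pigs. Within batch 5, with 4 Duroc and 7 Landrace pigs, it was only -0.03 (TNNC1) to -0.27 (ATP2A2), with exact permutation p of 0.573 to 0.961. Batch 3 held 2 Duroc pigs and batch 4 held 2 Landrace pigs, and the difference was not tested there. ATP2A2 was lower in Landrace in all 4 batches that held both breeds, and the other members in 3 of the 4.

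Some markers of other cells also differed between the breeds in the same model, in which 17.5% of all genes were lower in Landrace. Endothelial markers (PECAM1, CDH5 and KDR) were lower in Landrace in 3 of 3, with a summed level of 47.8 to 145 CPM in Duroc and 27.2 to 121 CPM in Landrace. Smooth muscle markers were lower in 2 of 3 tested (74.4 to 257 CPM in Duroc, 74.1 to 215 in Landrace) and fibroblast markers in 1 of 4 (344 to 2862 and 309.7 to 11928). Satellite cell markers were lower in 1 of 2 (3.58 to 12.03 and 1.33 to 7.72). Adipocyte markers were lower in 1 of 2 (9.88 to 113 and 10.5 to 144), with FABP4 not called at a log2 change of 0.25. The adipocyte sum had the higher median in Landrace (34.7 against 22.0 CPM in Duroc). The smooth muscle, fibroblast and satellite cell sums had it in Duroc. Leukocyte markers had 0 of 4 called with edgeR (7.11 to 20.6 and 5.42 to 42.6 CPM). Of the heart markers 1 of 3 tested was lower in Landrace, MYH6 (change -0.75), and their sum, nearly all MYH6, was 1632 to 5621 CPM in Duroc and 742 to 7715 CPM in Landrace. Of these markers LEP, PLIN1, TAGLN, CD79B, MYL4 and NKX2-5 had no count in some pigs, and NPPB had none in all pigs. What part these cells had in the breed difference was not tested.

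Of the fast-fibre counterparts 4 of 5 were called for breed, all 4 higher in Landrace, where 15.6% of all genes were. TNNT3, TNNI2 and TNNC2, the fast troponin genes, and MYL1, the fast essential light chain gene, were higher in Landrace. MYLPF, the fast partner of MYL2, had no matched identifier. TNNT3 was 7371, 9408 and 17360 CPM (lowest, median, highest) in Duroc and 6139, 12058 and 26569 CPM in Landrace, with an adjusted change of 0.60 (SE 0.131, FDR = 0.00108). TNNI2 was 4624, 6365 and 14438 CPM in Duroc and 3710.5, 7563 and 18776 CPM in Landrace (change 0.55, SE 0.142, FDR = 0.0049). TNNC2 was 6472, 8664 and 16407 CPM in Duroc and 5259, 9778 and 22452 CPM in Landrace (change 0.53, SE 0.130, FDR = 0.00295). MYL1 was 6277, 8259 and 11624 CPM in Duroc and 4999.9, 9071 and 11422 CPM in Landrace (change 0.44, SE 0.108, FDR = 0.00343). ATP2A1 did not pass, with a change of 0.31 (SE 0.170, FDR = 0.180), and its unadjusted mean was lower in Landrace in 3 of the 4 batches with both breeds. The breeds overlapped in each of the 5, and TNNT3, TNNI2, TNNC2 and MYL1 were higher in Landrace in all 4 batches with both breeds.

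With RIN the fast troponins moved in the same direction as the slow ones. TNNI2 fell by 0.65 per unit of RIN (SE 0.0992, FDR = 2.77e-06), TNNC2 fell by 0.56 (SE 0.0923, FDR = 8.1e-06) and TNNT3 fell by 0.50 (SE 0.0935, FDR = 4.74e-05). ATP2A1 rose by 0.66 (SE 0.141, FDR = 0.000257) and MYL1 had a change of 0.10 (SE 0.0825, FDR = 0.319). The slow coefficient minus the fast one was -0.22 for TNNT1 and TNNT3, -0.35 for TNNI1 and TNNI2, -0.31 for TNNC1 and TNNC2, -0.71 for MYL3 and MYL1 and -0.45 for ATP2A2 and ATP2A1. For breed the same differences were -1.24, -1.33, -1.13, -0.97 and -1.04. They are given as descriptions, without a test.

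**Figure D5:**
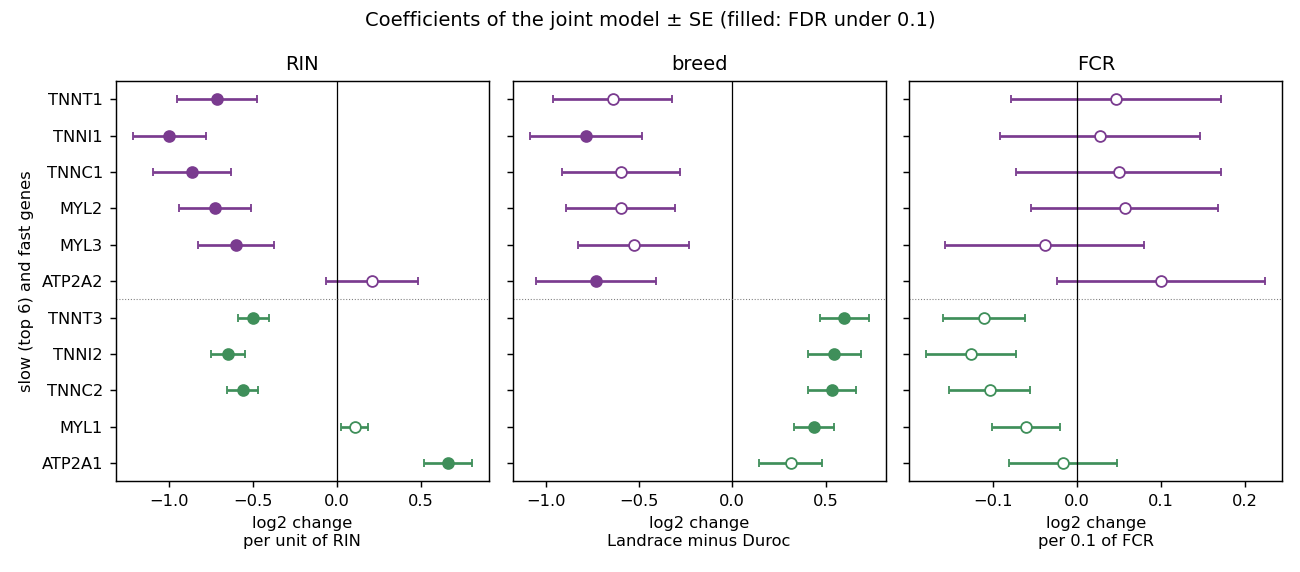
Coefficients of the joint model for the 6 slow-fibre genes (purple) and 5 fast counterparts (green), with RIN per unit, breed as Landrace minus Duroc and FCR per 0.1, in log2 with bars of 1 SE and filled points for FDR under 0.1. For breed the slow genes lie at -0.79 to -0.53 and the fast genes at 0.31 to 0.60, for RIN both troponin groups lie below 0, and for FCR no point is filled.

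The ratio of a slow gene to its fast counterpart within a pig does not depend on the scaling of the library. Its absolute level depends on transcript lengths, which were not given, so only differences between pigs can be read. The log2 ratio of TNNT1 to TNNT3 was -5.09 in the lowest pig and -0.58 in the highest, a 22.8-fold span, with a median of -2.71 in Duroc and -3.36 in Landrace. The ratio of TNNI1 to TNNI2 spanned 26.1-fold (medians -2.70 and -3.56) and that of TNNC1 to TNNC2 23.6-fold (medians -3.15 and -3.74). For MYL3 to MYL1 the span was 17.9-fold (medians -3.35 and -3.70) and for ATP2A2 to ATP2A1 30.1-fold (medians -3.25 and -3.72). Landrace 8 was highest in all 5 ratios, and Landrace 10 was lowest in 4 and Landrace 20 in ATP2A2 to ATP2A1. The SD over pigs was 0.75 to 0.85 in log2, and Duroc had the higher median in all 5 with overlapping ranges.

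No relation of the members to FCR was detectable in these pigs. In the joint model 0 of 6 were called for FCR with edgeR, 0 had an unadjusted p under 0.05, and DESeq2 and limma also called 0 of 6. Of all genes 0% were called at the FDR threshold and 8.68% had an unadjusted p under 0.05. For each 0.1 of FCR, which is about 1 SD of FCR over the pigs, the change was 0.10 for ATP2A2 (SE 0.124, FDR = 0.817), 0.06 for MYL2 (SE 0.112, FDR = 0.891), 0.05 for TNNC1 (SE 0.122), 0.05 for TNNT1 (SE 0.125), 0.03 for TNNI1 (SE 0.119) and -0.04 for MYL3 (SE 0.119). Each change was smaller than its standard error. The correlation with FCR over 41 pigs was -0.109 (MYL3) to -0.00478 (ATP2A2), with rho of -0.158 to -0.0587. The permutation p was 0.501 to 0.976 for r (adjusted 0.698 to 0.988) and 0.323 to 0.714 for rho. Over the members the median r was 0.00891 within batch 2, 0.306 within batch 3 and -0.304 within batch 5.

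Within the breeds the correlations with FCR had different signs for 5 of the 6 members. They were -0.385 (TNNC1) to -0.248 (MYL3) in Duroc and 0.154 to 0.248 in Landrace, while ATP2A2 was at 0.178 and 0.138. The product term of FCR and breed did not pass for any member (0 of 6 with edgeR, DESeq2 or limma, smallest unadjusted p = 0.113, FDR of 0.934 or more), nor for any gene (0% at the threshold, 5.22% at an unadjusted p under 0.05). Fitted within the 13 Duroc pigs, 0 of 6 members were called with edgeR, and none had an unadjusted p under 0.05 (5.37% of genes did). With DESeq2 1 member reached that p (0.0416) with an FDR of 0.9997. TNNI1 had -0.22 per 0.1 of FCR in this fit (SE 0.111, FDR = 0.786). Fitted within Landrace, 0 of 6 were called and none had an unadjusted p under 0.05 with edgeR, DESeq2 or limma, (5.50% of genes had such a p with edgeR), with MYL3 at -0.00019 and TNNI1 at 0.12 per 0.1 of FCR (SE 0.149 and 0.154). Without the 2 pigs farthest from the median FCR the correlations over all pigs were -0.0247 to 0.0538.

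Age and slaughter batch also gave no member past the threshold. For age 0 of 6 members were called with edgeR, DESeq2 and limma, 0 had an unadjusted p under 0.05, and 1.76% of genes were called with edgeR (16.0% at that p). The changes were -0.005 (TNNC1) to 0.02 (ATP2A2) in log2 per day. The correlation with age was positive in Landrace for every member (0.362 to 0.417) and negative in Duroc (-0.474 to -0.244), a difference that was not tested, and over all pigs -0.0477 to 0.0190 (rho of 0.0402 to 0.137, permutation p of 0.767 or more, adjusted p of 0.935 or more). For batch, tested over its 5 levels, 0 of 6 members were called with edgeR, DESeq2 and limma, 0 had an unadjusted p under 0.05 (smallest p = 0.113, for ATP2A2), and 24.1% of genes were called (32.6% at that p). Median TNNT1 was 1192 CPM in batch 2, 1421 in batch 3, 1348 in batch 4 and 1454 in batch 5. The batches overlapped in this gene, with 312 to 3241 CPM in batch 2 and 591 to 2585 CPM in batch 5.

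Other genes known from slow fibres were MYH7B, MYBPC1, a slow-type myosin binding protein gene, and the stretch-related genes CSRP3 and ANKRD2. Of 10 listed genes 4 were matched and tested, and 3 fell with RIN (27.9% of all genes did) and 2 were lower in Landrace (17.5% of all genes). ANKRD2 fell by 1.46 per unit of RIN (FDR = 6.54e-06), CSRP3 fell by 1.75 (FDR = 0.000251) and MYH7B fell by 0.94 (FDR = 0.00109). In Landrace ANKRD2 (change -1.11, FDR = 0.0454) and MYH7B (-0.79, FDR = 0.05) were lower, while MYBPC1 had 0.08 and CSRP3 -0.29. The median change of the 4 for breed was -0.54. MYH7B was 11.3 to 42.6 CPM in Duroc and 4.86 to 51.1 CPM in Landrace and had its lowest and highest values in Landrace 10 and Landrace 8, the same pigs as for the troponins.

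Of 10 other fast-fibre genes 7 were tested, and 5 were higher in Landrace with none lower (15.6% and 17.5% of all genes). They included MYOZ1 (0.37, FDR = 0.00117), MYBPC2 (0.54, FDR = 0.00261), ACTN3, the fast-fibre alpha-actinin (0.55, FDR = 0.00466), and TPM1 (0.42, FDR = 0.0143), and the median of the 7 was 0.42. With RIN, 2 rose and 1 fell (23.9% and 27.9% of all genes), with ACTN3 at 0.41 (FDR = 0.00293), CASQ1 at 0.23 (FDR = 0.0162), MYOZ1 at -0.27 (FDR = 0.000493) and MYBPC2 at -0.16 (FDR = 0.187). Of 6 genes of oxidative metabolism 4 were tested, and 3 were lower in Landrace (17.5% of all genes), namely LPL (-1.32, FDR = 0.000195), FABP3, the muscle fatty acid binding protein (-0.91, FDR = 0.00358), and CKMT2, the mitochondrial creatine kinase (-0.30, FDR = 0.0972), with COX6A2 at -0.16 (FDR = 0.524). With RIN, 3 of the 4 fell (27.9% of all genes), namely COX6A2 (-0.83, FDR = 1.22e-06), FABP3 (-0.56, FDR = 0.00708) and CKMT2 (-0.29, FDR = 0.0178), and LPL had 0.29 (FDR = 0.25). LPL was 109 to 267 CPM in Duroc and 38.9 to 295 CPM in Landrace.

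Regulators of fibre type were mixed in direction. Of 20 listed, 18 were tested, and for breed 3 were lower and 2 higher in Landrace, with a median of 0.07. These 5 of 18 for breed, and 9 of 18 for RIN, were no larger a share than the 33.1% and 51.8% of all genes. ESRRG, an oestrogen-related receptor of oxidative muscle (-1.37, FDR = 0.000448), and RCAN1, a target of calcineurin (-1.34, FDR = 0.00663), were lower in Landrace. SOX6, a repressor of slow-fibre genes (0.50, FDR = 0.00899), and PPP3CA, a catalytic subunit of calcineurin (0.39, FDR = 0.0137), were higher. For RIN 5 rose and 4 fell, led by TEAD1 (0.69, FDR = 1.01e-06), PPARGC1A (-0.83, FDR = 0.00172), ESRRG (-0.78, FDR = 0.00186) and TEAD4 (-0.32, FDR = 0.00274). SOX6 was 40.5 to 62.6 CPM in Duroc and 33.2 to 81.7 CPM in Landrace.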

How the data were processed

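Read pairs were trimmed by the authors with Trimmomatic 0.39 and aligned with STAR 2.7.1a to Sscrofa11.1 with Ensembl genes, and STAR counted pairs on single genes. The deposited values are raw counts, and the unstranded column was used, so overlapping and antisense genes cannot be told apart and multi-mapped pairs are lost. Each pig is 1 library, so p-values measure the spread between pigs, which includes technical spread. How far precision depended on the number of pigs and on depth was not tested.

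From these counts, the joint model (FCR, RIN, age, breed, batch as a factor) was fitted with edgeR 4.0.16 (quasi-likelihood, TMM, filterByExpr) in R 4.3.3, with DESeq2 1.42.0 and limma 3.58.1 as alternatives. The SE is the change divided by the square root of F. Residuals came from a linear fit of log2 CPM (prior count 0.5) to the same terms. Breed and correlation tests used 100000 permutations, or all splits within a batch. The steps were tested on simulated data, in which edgeR recovered 95.0% of 199 genes changed by 1 in log2 per unit of RIN (11131 genes), 88.9% of 199 changed by 1 between breeds (11127) and 96.0% of 199 changed by 5 per unit of FCR (11116), with 11.7%, 5.35% and 12.8% of calls false. Python 3.11.15, NumPy 2.4.6, pandas 2.3.3, SciPy 1.17.1 and matplotlib 3.10.9 were used.

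The members and gene lists were chosen with earlier results of these data known. Genes named are the members, their fast counterparts, the 4 genes of each further fibre list with the smallest p for RIN and for breed, MYH7, the 10 genes most like the members on each scale and each member's closest gene. The permutation tests of breed, the fits of RIN and age within each breed and the table of pigs above or below the mean were added after the data were seen. Symbols came from a table that paired 14857 of the 25880 identifiers with a name.

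Pig numbers within a breed follow deposit order and pair no pigs. Benjamini-Hochberg FDR over all genes tested was used with a threshold of 0.1. The values of 1 list of marker genes are not reported here.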

Additional observations from a re-analysis of the deposited data

How the results depend on the processing

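For RIN the number of members called stayed at 5 of 6 with DESeq2, limma, other size factors, no filter, and without age or batch. It was 2 with library size only and 2 without the 2 pigs with RIN below 7, where ATP2A2 had a reversed sign (-0.084). For breed it was 1 with DESeq2, 1 with batch as a number, 1 with no filter on low counts, 1 without RIN, 0 without batch and 6 with library size only. It was 3 with limma (MYL2 gained) and 3 without age (TNNC1 and MYL2 gained, ATP2A2 lost), and 2 with DESeq2's size factors or without the 2 pigs with RIN below 7. Leaving out 1 pig gave 4 to 5 members for RIN, 0 to 6 for breed, and 0 for FCR, age and batch. Beyond the pigs named in the report, the FDR of TNNT1 for breed fell below 0.1 without Duroc 10. Leaving out 1 pig moved the breed change of TNNT1 between -0.77 and -0.46, TNNI1 between -0.91 and -0.59 and TNNC1 between -0.72 and -0.39. For MYL2 it lay between -0.75 and -0.40, for MYL3 between -0.62 and -0.32 and for ATP2A2 between -0.87 and -0.55. For FCR the sign of MYL3 was reversed with library size only (0.24). Of the age changes, all near 0, the sign was reversed without RIN in TNNT1 (-0.0045), TNNI1 (-0.014), MYL2 (-0.013) and MYL3 (-0.0042), in TNNC1 with batch as a number (0.0074) and library size only (0.0022), and in MYL2 with no filter (-6.7e-05). Leaving out 1 pig moved the FCR change of TNNT1 between -0.44 and 1.42, TNNI1 between -0.63 and 1.14, TNNC1 between -0.50 and 1.46, MYL2 between -0.36 and 1.34, MYL3 between -0.96 and 0.43 and ATP2A2 between 0.18 and 1.77 per unit of FCR. It moved the age change of TNNT1 between -0.0033 and 0.055, TNNI1 between -0.0040 and 0.044, TNNC1 between -0.018 and 0.041, MYL2 between -0.011 and 0.034, MYL3 between -0.0024 and 0.054 and ATP2A2 between 0.011 and 0.056. The cause of these changes was not tested. Of the changes of single members under settings other than leaving out 1 pig, 199 kept their direction and side of the threshold, 13 lost and 7 gained the call and 9 were reversed. The median correlation and the log2 ratios moved by less than their spread. Ratios per transcript length were not run, since no lengths were given. No paired analysis was possible because replicate numbers follow deposit order and pair no pigs. Batch was a term of the model, and all batches but the first, which had 1 Duroc pig only, held both breeds.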
